A study of Mus musculus with 2 samples.

Results

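Heart mRNA levels of 10 tubulin isotype genes were compared between mice that lack Med1 in cardiomyocytes and their floxed controls. The genes are the alpha-tubulins Tuba1a, Tuba1b, Tuba1c and Tuba4a and the beta-tubulins Tubb2a, Tubb2b, Tubb3, Tubb4b, Tubb5 and Tubb6, taken by symbol from the 22882 gene symbols of the deposited tables. They were picked with the values of this comparison already known, so the differences given here describe these genes and test nothing. Control mice carried floxed Med1 alleles (Med1fl/fl). In csMed1-/- mice the same floxed alleles were recombined by Cre under the α-MyHC promoter, which is active in cardiomyocytes from the late embryonic period, so the other cells of the heart keep Med1 and every mouse of both groups carries loxP sites. All mice were 23 days old, of the strain C57BL6/J and of both sexes, and a group with Cre but without floxed alleles was not analysed here. RNA of whole hearts from 5 mice was pooled per genotype and read as 1 library each, so no value below has a replicate, an SD or a p-value.

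Microtubules are hollow polymers of alpha- and beta-tubulin heterodimers. Mammals carry several genes, the isotypes, for each of the 2 proteins, which are alike along most of their length and differ mainly in a short acidic tail that reaches out from the polymer. In cardiomyocytes microtubules surround the nucleus and run between the myofibrils, and a denser, more strongly modified network is a known feature of hypertrophied and failing hearts. Cells also hold free tubulin in check through its own mRNA, since a surplus of free dimers leads to decay of tubulin mRNAs while they are being translated. The factor Ttc5 recognises the nascent tubulin chain by its first few residues.

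The start of each coding sequence is shown because it encodes the stretch that this control reads, with the first 4 codons in capitals. The sequences, the first 30 coding bases of the principal transcript (GENCODE M21, GRCm38), are those of 9 genes, and that of Tubb6 is not shown.
Tuba1a: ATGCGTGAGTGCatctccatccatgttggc
Tuba1b: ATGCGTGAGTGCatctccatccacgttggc
Tuba1c: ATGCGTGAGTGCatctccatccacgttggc
Tuba4a: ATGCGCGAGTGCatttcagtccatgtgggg
Tubb2a: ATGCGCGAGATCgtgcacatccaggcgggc
Tubb2b: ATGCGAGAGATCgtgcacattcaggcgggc
Tubb3: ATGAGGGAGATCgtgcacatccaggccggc
Tubb4b: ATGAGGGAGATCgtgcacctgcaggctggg
Tubb5: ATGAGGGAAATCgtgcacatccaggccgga
As bases, the capitals took 2 forms among the 4 alpha-tubulin genes and 5 forms among all 6 beta-tubulin genes. In the 9 sequences shown, these differences leave the encoded residues unchanged, so the 4 codons spell the same residues within each class. Over the whole coding sequence, members of the alpha class were 84.7% to 98.3% identical to each other (6 pairs). The beta class spanned 80.2% to 96.5% (15 pairs), and an alpha and a beta gene were 50.1% to 52.6% identical (24 pairs).

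Such likeness bears on the values, because the libraries were read as 50-base single-end reads. Each transcript was therefore divided into all its windows of 50 bases, and each window was looked for in the transcripts of every other gene. Tuba1a, Tuba1b and Tuba1c shared 72.9%, 73.8% and 61.0% of their windows with another gene, mostly with one another and with predicted genes. Tubb2a shared 49.6% and Tubb2b 39.3%, in the main with each other. For Tubb4b the share was 50.9%, of which most was held by its pseudogene Tubb4b-ps1. Tuba4a (1.11%), Tubb5 (0.115%), Tubb3 and Tubb6 (no shared window) stood nearly or wholly apart. How the authors' counting divided reads that match several genes is not given in the sources used here. In this respect the separate values of Tuba1a, Tuba1b and Tuba1c, of Tubb2a and Tubb2b, and of Tubb4b and its pseudogene are less certain. It touches the 4 distinct genes little or not at all, but Tubb3 and Tubb6 have limits of another kind, given below.

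**Figure D1:**
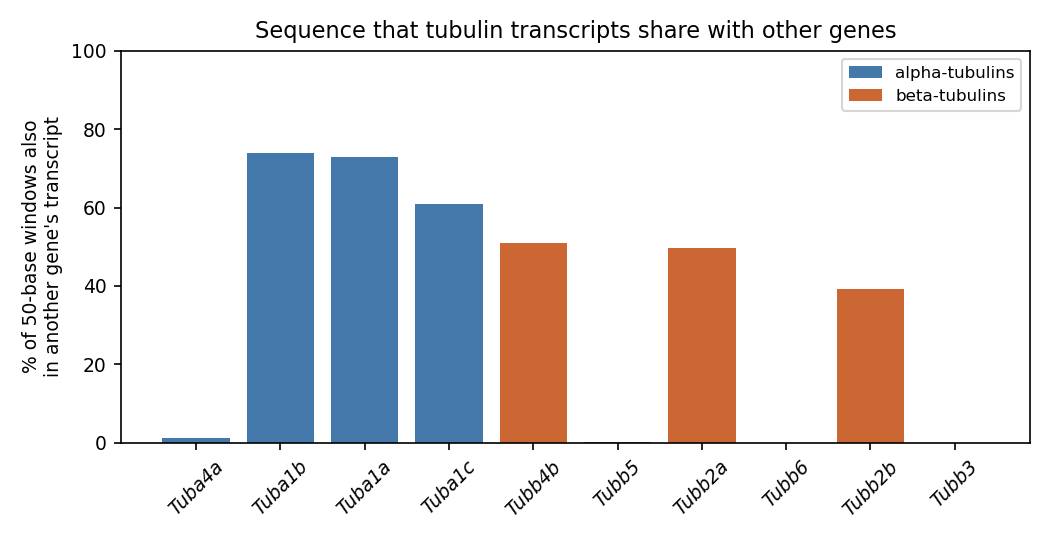
Percent of the 50-base windows of each tubulin transcript (y axis) that also occur in a transcript of another gene in the GENCODE M21 set, for the 10 genes (x axis, 1 bar per gene). The bars of Tuba1a, Tuba1b and Tuba1c stand above 60%, those of Tubb4b, Tubb2a and Tubb2b between 39.3% and 50.9%, and those of Tuba4a, Tubb5, Tubb6 and Tubb3 at or near 0.

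Values are FPKM, fragments per kilobase of transcript per library size as the authors scaled it, which can be set side by side between genes because they are per length. Changes are plain ratios of csMed1-/- to Med1fl/fl FPKM and their log2. A gene was compared if it was above 0 in both libraries and reached 1 FPKM in at least 1 of them, as 10489 genes did, among them all 10 tubulins. Med1 itself had 3.38 FPKM in Med1fl/fl and 0.412 FPKM in csMed1-/- heart, a log2 ratio of -3.04. The FPKM of the libraries summed to 780366 and 716365. The absolute depth is unknown. From the steps among the lowest values, a fragment weighed 0.722 times as much in csMed1-/- as in control, a relative depth of 1.38 where mapped fragments alone set the scale. Of the genes at 0 in control, 6 had at least 100 FPKM in csMed1-/- heart, among them Actc1 and the joined entry of Myh6 and Myh7, so a 0 in these tables can be a failed estimate. None of the tubulin members was at 0.

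In csMed1-/- heart the tubulin mRNAs differed from control in opposite directions. Tuba4a, the most abundant isotype of the control heart, was lower by more than 2-fold, while 7 of the 10 genes were higher by more than 2-fold and Tubb4b and Tubb5 lay within 2-fold. Among all genes tested, 13.6% were more than 2-fold higher, 18.0% more than 2-fold lower and 31.5% past 2-fold in either direction. The median log2 ratio of the 10 genes was 1.32, and that of all genes tested was -0.07. Because the genes were picked on this comparison, their count and median carry no weight against that background.

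**Figure D2:**
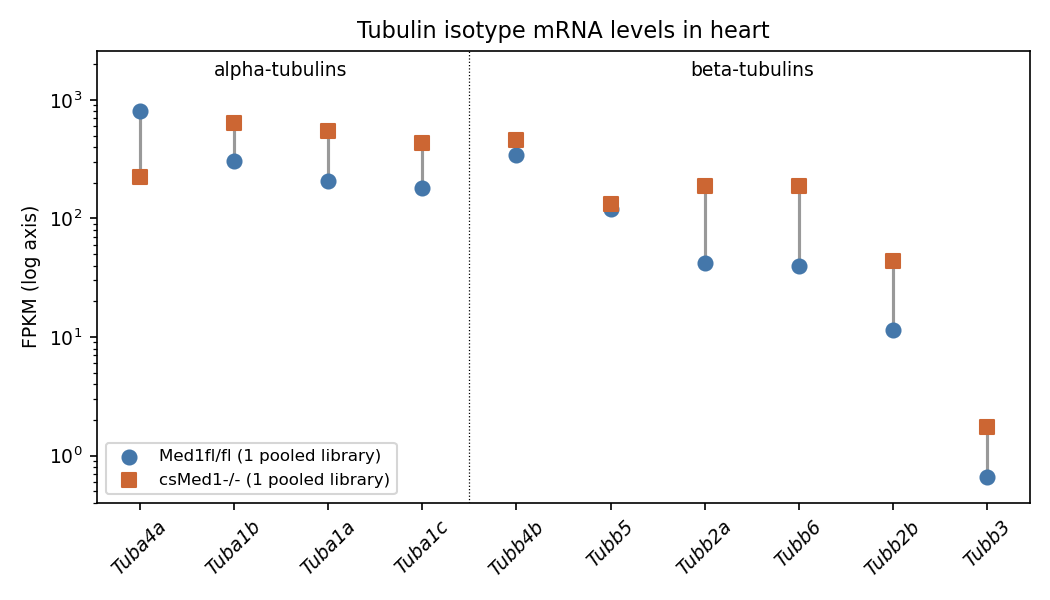
FPKM on a log axis for each tubulin gene (x axis) in the Med1fl/fl library (circles) and the csMed1-/- library (squares), 1 pooled library each and so without error bars. Tuba4a is the one gene whose csMed1-/- value lies below its control value, and the gaps of Tubb5 and Tubb4b are the narrowest.

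Tuba4a encodes an alpha-tubulin that, unlike most, is made without the final tyrosine. Its gene (GRCm38, chromosome 1, 75214228 to 75219865, minus strand) has 4 exons, as each of the 10 genes does. Its level was 811 FPKM in Med1fl/fl heart and 223 FPKM in csMed1-/- heart, at a ratio of 0.275 (log2 ratio -1.86). Only 6.15% of the genes tested had a lower ratio. The sole member to be lower, it held the first place in the order of the 10 genes in control and the fifth in csMed1-/- heart. In bulk tissue, fewer cells of a type and less RNA per cell cannot be told apart, here or for any gene below.

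The other 3 alpha-tubulin genes lie together on chromosome 15 and were all higher in csMed1-/- heart. Tuba1b (98931425 to 98934565, minus strand), an isotype of nearly all cells, had 308 FPKM in Med1fl/fl and 635 FPKM in csMed1-/-, where it was the highest of the 10 genes (log2 ratio 1.04). With a ratio of 2.06 it was the member just past 2-fold, and Tubb4b, at 1.33, was the nearest inside it. Tuba1a (98949837 to 98953703, minus strand), the leading alpha-tubulin of developing neurons, had 207 and 548 FPKM, a ratio of 2.65 (log2 ratio 1.41). Tuba1c (99029891 to 99038110, plus strand) had 182 and 431 FPKM, a ratio of 2.36 (log2 ratio 1.24). The gap between Tuba1b and Tuba1a is 15271 bases and that between Tuba1a and Tuba1c 76187 bases. Summed, so that the split of reads among them plays less part, the 3 genes had 697 FPKM in control hearts against 1613 FPKM in csMed1-/- hearts, a ratio of 2.31. Reads that they share with predicted genes can still bear on this sum.

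Tubb6, Tubb2a and Tubb2b showed the widest differences. Tubb6, on chromosome 18 (67390717 to 67402749, plus strand), encodes a beta-tubulin of wide but usually low expression. It had 39.8 FPKM in Med1fl/fl and 186 FPKM in csMed1-/-, a ratio of 4.69 (log2 ratio 2.23), and 3.33% of the genes tested had a higher ratio. The tables list it on 2 rows that differed in opposite directions. The first row, with 89.9% of the control sum, went from 35.8 to 186 FPKM (log2 ratio 2.38), and the second from 4.001 to 0.727 FPKM (log2 ratio -2.46). Tubb2a and Tubb2b, both known mainly from neurons, are neighbours on the minus strand of chromosome 13 (34074274 to 34078007 and 34126748 to 34130466), 48740 bases apart. For Tubb2a the level was 42.1 FPKM in control hearts against 188 FPKM in csMed1-/- hearts, a ratio of 4.47 (log2 ratio 2.16). That of Tubb2b was 11.4 and 43.6 FPKM, a ratio of 3.84 (log2 ratio 1.94). Together Tubb2a, Tubb2b and Tubb6 had 93.3 FPKM in Med1fl/fl and 419 FPKM in csMed1-/-. Above 4-fold were 2 of the 10 genes, Tubb6 and Tubb2a, beside 4.32% of all genes tested, and Tubb2b joined them under 2 of 4 other scalings.

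The most abundant beta-tubulins of the control heart differed least. Tubb4b (chromosome 2, 25222160 to 25224702, minus strand), a widely expressed isotype that is prominent in cilia, had 342 FPKM in control hearts against 456 FPKM in csMed1-/- hearts, a ratio of 1.33 (log2 ratio 0.42). Tubb5 (chromosome 17, 35833921 to 35838306, minus strand), a general beta-tubulin, had 120.1 and 133 FPKM, a ratio of 1.10 (log2 ratio 0.14). Of all genes tested, 29.4% had a higher ratio than Tubb4b and 40.5% a higher ratio than Tubb5.

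Tubb3, used as a neuron marker, was the lowest of the 10 genes in both libraries. It lies on chromosome 8 (123411424 to 123422015, plus strand) and had 0.662 FPKM in Med1fl/fl and 1.74 FPKM in csMed1-/-, a ratio of 2.63 (log2 ratio 1.39). It passed the filter only through csMed1-/- heart, the sole member to do so. Adding a pseudocount of 1 FPKM, which damps low values, brought its log2 ratio to 0.72, inside 2-fold.

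**Figure D3:**
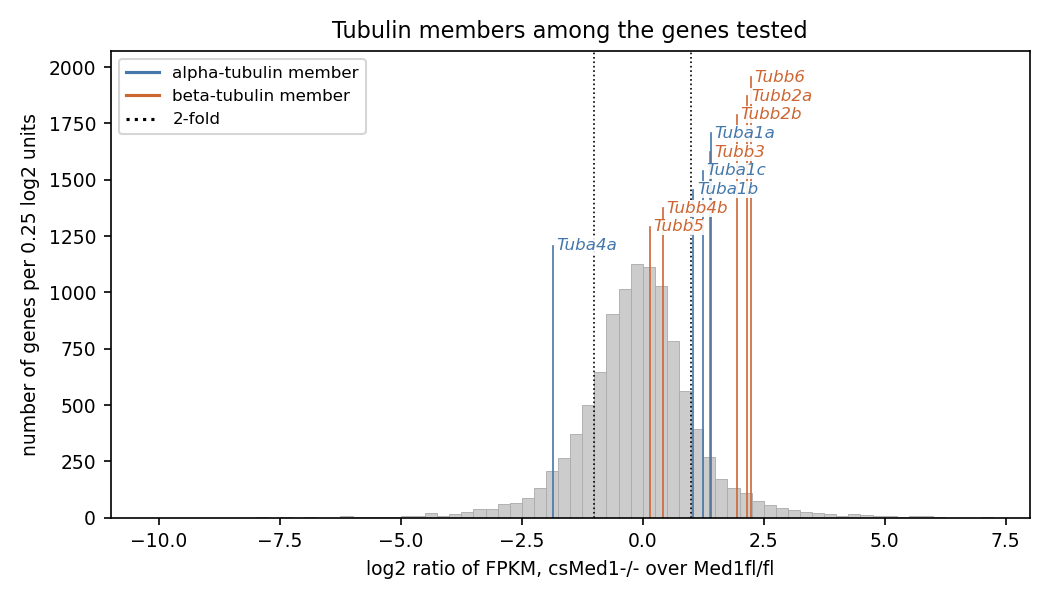
Histogram of the log2 ratio of csMed1-/- to Med1fl/fl FPKM (x axis) over the 10489 genes tested, as the number of genes per bin (y axis), with the 10 tubulins as labelled lines (their heights only separate the names) and 2-fold as dotted lines. Tuba4a stands at -1.86 on the low side, Tubb5 and Tubb4b near the middle, and the other 7 genes from 1.04 to 2.23.

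The make-up of the tubulin mRNA, a share within each library that does not depend on how the libraries were scaled to each other, also differed. In control heart Tuba4a held 53.8% of the summed FPKM of the 4 alpha-tubulin genes, and in csMed1-/- heart 12.1%. The share of Tuba1a went from 13.7% to 29.8%, that of Tuba1b from 20.4% to 34.6% and that of Tuba1c from 12.1% to 23.4%. Among the 6 beta-tubulin genes, Tubb4b kept the largest share in both libraries, with 61.5% in control and 45.2% in csMed1-/- heart. Tubb5 held 21.6% and 13.1%. Tubb2a, Tubb2b and Tubb6 together made up 16.8% of the beta-tubulin sum in control and 41.5% in csMed1-/- heart. Tubb3 stayed below 1% in both, at 0.119% and 0.172%.

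**Figure D4:**
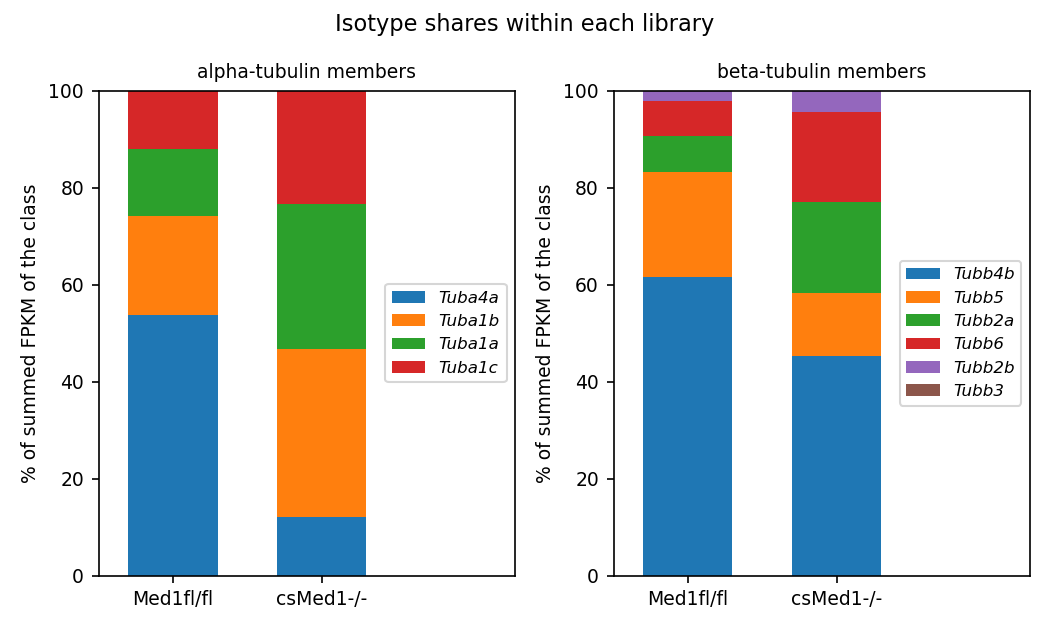
Stacked bars of the percent of summed FPKM (y axis) that each gene holds among the alpha-tubulin members (left) and the beta-tubulin members (right) in the Med1fl/fl and csMed1-/- libraries (x axis), 1 pooled library each. The Tuba4a segment is 53.8% in control and 12.1% in csMed1-/-, and Tubb2a, Tubb2b and Tubb6 together take 16.8% and 41.5%.

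Summed over the members of each class, both tubulins were higher in csMed1-/- heart, by less than 2-fold. The 4 alpha-tubulin genes added up to 1508 FPKM in control hearts against 1836 FPKM in csMed1-/- hearts, a ratio of 1.22. The 6 beta-tubulin genes added up to 556 and 1009 FPKM, a ratio of 1.81, which lies above those of Tubb4b and Tubb5 and below those of the other 4. Both proteins enter the heterodimer in equal number, and their mRNA sums are set beside each other here. Such a quotient does not give protein amounts, and reads shared with other genes can bear on both sums. Over the 10 members alone, alpha exceeded beta 2.71 times in control and 1.82 times in csMed1-/- heart. With the further alpha- and beta-tubulin genes described below, alpha exceeded beta 3.24 and 1.92 times. The alpha sum then differed little between the libraries, at a ratio of 1.06, and the beta sum had one of 1.79. The order of the 10 genes by level also differed. From highest to lowest it was Tuba4a, Tubb4b, Tuba1b, Tuba1a, Tuba1c, Tubb5, Tubb2a, Tubb6, Tubb2b and Tubb3 in control. In csMed1-/- heart it was Tuba1b, Tuba1a, Tubb4b, Tuba1c, Tuba4a, Tubb2a, Tubb6, Tubb5, Tubb2b and Tubb3. With 1 library per genotype there is no spread by which to say which neighbours in either order differ.

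Of 6 further alpha- and beta-tubulin genes, the 2 that could be compared were lower in csMed1-/- heart. Tuba8, an alpha-tubulin of muscle, testis and brain, had 322 FPKM in control, more than any member but Tuba4a and Tubb4b, against 109.9 FPKM in csMed1-/- heart (log2 ratio -1.55). Tubb4a, known as the beta-tubulin of oligodendrocytes and neurons, had 9.26 and 2.74 FPKM (log2 ratio -1.76). The other 4 did not reach 1 FPKM in either library. Of these, Tuba3a had 0.583 and 0.0658 FPKM, Tuba3b 0.837 and 0.182 FPKM, Tubb1 0.0907 and 0.346 FPKM, and Tubal3 0.00506 FPKM in control and 0 in csMed1-/- heart. Tuba4a and Tuba8 together held 61.8% of all alpha-tubulin FPKM in control and 17.1% in csMed1-/- heart. With these genes counted in, the alpha-tubulin sum had a ratio of 1.06 and the beta-tubulin sum one of 1.79.

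The 250 bases before the transcription start are shown for Tubb2a and Tuba1c, which were higher, and for Tubb4b, which was within 2-fold. They come from RefSeq (GRCm38.p6), whose table had such a window for 8 of the 10 genes, all but Tubb2b and Tubb6. RefSeq and GENCODE place some starts differently, and these 3 are the member windows that lie wholly outside the GENCODE gene. The other 5 reach into it, by 5 bases in Tubb5, 129 in Tubb3, 175 in Tuba1b, 202 in Tuba1a and all 250 in Tuba4a, and are not printed. Capitals mark matches, on either strand, to CCAAT, bound by NF-Y, to TATAAA, the TATA box, to GGGCGG, bound by Sp1, to TGACGTCA, bound by CREB and ATF factors, and to the heat shock element GAANNTTC or TTCNNGAA.
Tubb2a: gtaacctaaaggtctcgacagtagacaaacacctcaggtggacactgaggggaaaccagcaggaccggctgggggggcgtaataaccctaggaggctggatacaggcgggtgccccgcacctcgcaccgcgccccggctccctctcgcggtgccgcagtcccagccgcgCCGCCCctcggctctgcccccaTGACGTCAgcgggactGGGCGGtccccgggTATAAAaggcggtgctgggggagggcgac
Tuba1c: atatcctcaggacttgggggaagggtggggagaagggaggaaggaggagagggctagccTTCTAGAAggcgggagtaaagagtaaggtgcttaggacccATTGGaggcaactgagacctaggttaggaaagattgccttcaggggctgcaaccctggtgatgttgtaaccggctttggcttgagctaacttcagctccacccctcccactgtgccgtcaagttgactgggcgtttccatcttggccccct
Tubb4b: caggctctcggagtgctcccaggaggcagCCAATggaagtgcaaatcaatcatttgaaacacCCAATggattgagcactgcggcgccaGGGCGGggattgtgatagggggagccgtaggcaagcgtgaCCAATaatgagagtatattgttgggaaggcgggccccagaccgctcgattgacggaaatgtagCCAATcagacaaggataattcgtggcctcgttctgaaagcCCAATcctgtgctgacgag
The windows lie at chr13:34078009-34078258 (minus strand), chr15:99029641-99029890 (plus strand) and chr2:25224703-25224952 (minus strand), in the order shown.

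The 3 printed windows differed in what they held. That of Tubb2a had TATAAA 29 bases before the start, TGACGTCA 59 bases before it and 2 matches to GGGCGG. The window of Tuba1c had 1 match to CCAAT, 151 bases before the start, and 1 to the heat shock element, 191 bases before it. That of Tubb4b had 5 matches to CCAAT and 1 to GGGCGG. Over the 8 member windows, the 5 that reach into a GENCODE gene included, CCAAT was found in 5 (33.8% of all 32851 RefSeq windows of this length) and GGGCGG in 6 (32.7%). TATAAA was found in 1 (12.4%), the heat shock element in 2, those of Tuba1c and Tubb5 (12.8%), and the CArG box of serum response factor in 0 (1.47%). TGACGTCA was searched for after it had been seen in Tubb2a and was in 1 (1.55%). No match overlapped another. The share of G and C bases in the 8 windows ran from 49.2% in Tubb5 to 75.6% in Tuba1b, beside a median of 52.4% over all RefSeq windows. Its part in these counts was not tested. A match describes letters and not a working site.

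Before a tubulin chain can join a heterodimer, it passes through prefoldin, the CCT chaperonin and a set of folding cofactors. For prefoldin, 6 of 6 genes lay within 2-fold (median log2 ratio 0.13), from Pfdn6 at 63.6 and 48.8 FPKM (log2 ratio -0.38) to Pfdn2 at 39.8 and 50.9 FPKM (log2 ratio 0.36). Pfdn5 was the most abundant, at 336 and 422 FPKM, Pfdn1 had 66.3 and 58.1 FPKM, and Vbp1 (1.03 and 1.31 FPKM) and Pfdn4 (2.06 and 1.97 FPKM) were low. For the CCT chaperonin, 7 of 8 genes lay within 2-fold (median -0.14). The exception was Cct4, at 32.5 FPKM in Med1fl/fl and 13.5 FPKM in csMed1-/- (log2 ratio -1.26), and the highest ratio was that of Cct3, at 78.1 and 116 FPKM (log2 ratio 0.57). Of the 7 cofactor genes, 6 were higher, 1 of them past 2-fold, and the median was 0.56. Tbcd, which handles the beta chain, had 6.84 and 20.8 FPKM (log2 ratio 1.61). Tbcb and Tbcc stood just inside 2-fold, Tbcb at 56.3 and 108 FPKM (log2 ratio 0.94) and Tbcc at 11.3 and 21.7 FPKM (log2 ratio 0.94). Tbce, which handles the alpha chain, was the one below control, at 3.67 and 3.42 FPKM (log2 ratio -0.10). Ttc5, the reader of nascent tubulin, had 7.36 FPKM in control hearts against 8.80 FPKM in csMed1-/- hearts (log2 ratio 0.26). Its partner Scaper stayed below 1 FPKM, at 0.549 and 0.205 FPKM.

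Microtubules grow from gamma-tubulin ring complexes, whose tested genes lay close to their control levels apart from the gamma-tubulin gene Tubg2. All 7 genes tested for the other ring complex proteins lay within 2-fold (median log2 ratio -0.07), from Mzt1 (1.605 and 1.22 FPKM) to Mzt2 (26.2 and 32.4 FPKM). Tubg1, the main gamma-tubulin, had 35.4 FPKM in Med1fl/fl and 36.0 FPKM in csMed1-/-. Its paralog Tubg2 was higher by more than 2-fold, at 4.02 and 10.9 FPKM (log2 ratio 1.44). Tubd1, a delta-tubulin of centrioles, had 3.599 and 2.45 FPKM (log2 ratio -0.56), and Tube1, an epsilon-tubulin, had 0.138 and 0.131 FPKM.

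Once built, microtubules are modified mainly on the tails, where tubulins differ most. In the tyrosination cycle a vasohibin with its partner Svbp removes the last tyrosine of alpha-tubulin and the ligase Ttl restores it. Ttl had 4.13 FPKM in control hearts against 0.885 FPKM in csMed1-/- hearts (log2 ratio -2.22). Vash1 had 6.91 and 4.10 FPKM (log2 ratio -0.75), Svbp had 30.3 and 35.9 FPKM (log2 ratio 0.24), and Vash2 had 0.173 and 0.306 FPKM. Thus 1 of the 3 genes tested, the ligase, was past 2-fold, and it was lower. It passed the filter only through control heart, which fixed its direction.

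Among 13 tyrosine ligase-like genes, whose products mostly add glutamate or glycine chains, 6 could be tested. Past 2-fold were Ttll11 and the joined entry with Ttll3, both higher, and Ttll1, which was lower. Ttll1, the catalytic subunit of a polyglutamylase, had 64.4 FPKM in Med1fl/fl and 11.7 FPKM in csMed1-/- (log2 ratio -2.46). Ttll11, also a polyglutamylase, had 3.38 and 42.0 FPKM (log2 ratio 3.64), as the sum of 2 rows. Ttll3 shares its entry with Arpc4 and cannot be read alone (46.6 and 146 FPKM). Agtpbp1, which trims glutamate chains, had 7.35 and 2.08 FPKM (log2 ratio -1.82), and Agbl5, a related enzyme, had 2.50 and 3.59 FPKM. The other 4 genes for such enzymes, Agbl1, Agbl2, Agbl3 and Agbl4, stayed below 1 FPKM. The acetylation enzymes were all higher, 2 of 3 past 2-fold. Atat1, which acetylates alpha-tubulin inside the polymer, had 7.57 and 15.9 FPKM (log2 ratio 1.07). Hdac6, which removes the mark, had 7.15 and 27.5 FPKM (log2 ratio 1.94), and Sirt2, which also removes it, had 98.6 and 118 FPKM (log2 ratio 0.27).

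Of 14 genes for proteins that bind along the polymer, 8 could be tested, and 4 were higher and 0 lower by more than 2-fold, Map1b among the former having passed the filter only through csMed1-/- heart, with a median log2 ratio of 0.70. Map1a had 1.10 FPKM in control hearts against 7.08 FPKM in csMed1-/- hearts (log2 ratio 2.68), Map1b 0.211 and 1.04 FPKM (log2 ratio 2.31) and Map1s 12.9 and 32.3 FPKM (log2 ratio 1.32). Map7d1, the most abundant gene of this list in both libraries, had 220.4 and 151 FPKM (log2 ratio -0.55). Map7 had the lowest ratio, at 2.85 and 1.58 FPKM (log2 ratio -0.85). Map4, the main microtubule-binding protein of muscle, had 99.9 and 128 FPKM (log2 ratio 0.35). At the growing ends, Clasp1 was lower, with 33.6 FPKM in Med1fl/fl and 10.7 FPKM in csMed1-/- (log2 ratio -1.65). Clasp2 was lower too, at 5.46 and 1.79 FPKM (log2 ratio -1.61). The end-binding gene Mapre3 was higher, at 34.3 and 73.7 FPKM (log2 ratio 1.10), and the other 5 plus-end genes lay within 2-fold.

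Of 12 genes for proteins that sever or take apart microtubules, 7 were tested, with 2 higher and 1 lower by more than 2-fold. Stmn4, a stathmin of neurons, had 0.411 FPKM in control and just above 1 FPKM in csMed1-/- heart (log2 ratio 1.31). Katnal1, a catalytic katanin subunit, had 1.13 and 0.308 FPKM (log2 ratio -1.88). The filter fixed the direction of both, since Stmn4 passed it only through csMed1-/- heart and Katnal1 only through control. Stmn1, which sequesters tubulin dimers, had 16.9 and 16.5 FPKM. Of 17 genes tested for kinesin-1, dynein and dynactin, 13 lay within 2-fold, 2 were higher and 2 lower, with a median of 0.25. The 2 higher were Kif5b (0.623 and 2.16 FPKM) and the dynein light chain gene Dynll1 (12.7 and 32.2 FPKM). Kif5b passed the filter only through csMed1-/- heart, which fixed its direction. Dynll2 (90.6 and 37.0 FPKM) and the dynactin gene Dctn6 (80.3 and 40.0 FPKM) were the 2 lower. The cytoplasmic actins Actb (422 and 601 FPKM, log2 ratio 0.51) and Actg1 (368 and 497 FPKM, log2 ratio 0.43) lay within 2-fold.

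**Figure D5:**
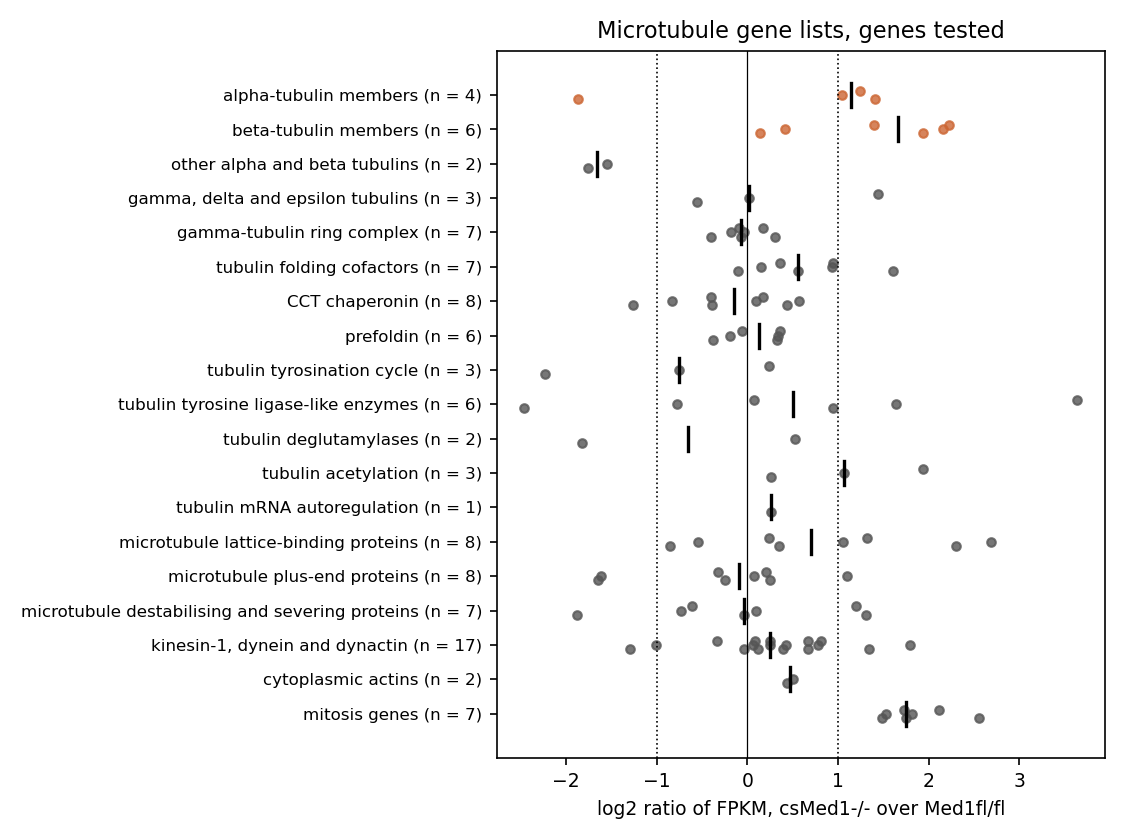
log2 ratio of csMed1-/- to Med1fl/fl FPKM (x axis) for the tested genes of each list (y axis, 1 point per gene, small vertical offsets only to separate points), with a bar at the list's median and dotted lines at 2-fold. The ring complex genes, listed apart from the gamma-tubulins, and the prefoldin genes all lie between the dotted lines. The beta-tubulin members reach 2.23 and the tyrosine ligase-like genes spread from -2.46 to 3.64.

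Whole heart holds many cell types, and markers of some differed between the libraries as well. All 6 cardiomyocyte markers tested were lower, 3 of them past 2-fold (median log2 ratio -0.89). The other 2, Actc1 and the joined entry with Myh6, were at 0 in control. The 8 fibroblast markers summed to 503 FPKM in Med1fl/fl and 1193 FPKM in csMed1-/-, with 4 higher and 1 lower by more than 2-fold. Postn had 1.57 and 27.4 FPKM and Col1a1 129 and 502 FPKM, whereas Pdgfra, a growth factor receptor of fibroblasts, had 4.10 and 4.03 FPKM. Of the 8, 3 were lower at all: Pdgfra, Dcn (114 and 96.6 FPKM) and, past 2-fold, Lum (8.04 and 3.72 FPKM). Endothelial markers were lower in 6 of 6 genes, 3 past 2-fold, and summed to 404 and 263 FPKM. Smooth muscle and pericyte markers summed to 675 and 496 FPKM, of which Acta2 made up 573 and 310.0 FPKM. The other 5 summed to 102 and 186 FPKM, with 2 higher and 1 lower by more than 2-fold. All 5 macrophage and leukocyte markers tested lay within 2-fold, with sums of 245 and 230.1 FPKM. How far these cell types had a part in the tubulin values was not tested.

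For isotypes tied to particular cells, the matching markers stood as follows. Beside Tubb3, Tubb2a and Tubb2b, 3 of 12 neuron markers could be tested. Of these Uchl1 was higher (15.6 and 319 FPKM), Dbh lower (22.5 and 0.391 FPKM) and Stmn2 within 2-fold (3.83 and 2.31 FPKM). Dbh passed the filter only through control heart, which fixed its direction. The other 9 neuron markers were below 1 FPKM, and 4 of them, Th, Elavl4 and Nefl included, were at 0 in control, Nefl in both libraries. Schwann cell markers summed to 3.29 FPKM in control hearts against 2.02 FPKM in csMed1-/- hearts. Beside Tubb1, the tubulin of platelets, platelet markers summed to 35.2 and 61.0 FPKM. Pf4, the most abundant, had 28.4 and 31.1 FPKM, and Gp1bb shares its entry with Sept5 (5.83 and 20.7 FPKM) and cannot be read alone. Without that entry the sums were 29.4 and 40.3 FPKM, and the other 3 markers reached 1 FPKM in csMed1-/- heart alone. Mitosis genes, looked at for dividing cells and not as markers of an isotype, were low in both libraries. None of the 17 was above 0.7795 FPKM in control or 2.84 FPKM in csMed1-/- heart. The 7 that could be compared, such as Plk1 (0.482 and 2.84 FPKM) and Aurka (0.679 and 2.39 FPKM), reached 1 FPKM in csMed1-/- heart alone, so that filter fixed their direction and their count says nothing. Above 0 in both libraries were all 17, and 16 of them had a higher value in csMed1-/- heart. Under the stricter filter, 4910 of the 10489 genes tested did so. Several of the 17 lay near 0, such as Bub1 (0.00337 and 0.00489 FPKM) and Kif11 (0.0807 and 0.0844 FPKM), so this count carries little weight. The part of mitosis genes, neurons or platelets in the tubulin values was not tested.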

How the data were processed

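mRNA was enriched with oligo-dT from heart RNA pooled from 5 mice per genotype and made into directional libraries read as 50-base single-end reads. The authors aligned reads to mm10 with TopHat (2.0.8b) and made the deposited FPKM values of known UCSC genes with Cufflinks and cuffdiff (2.1.1); GEO's processing notes also name STAR (2.4.0h), Bowtie2 and DESeq2 without a role. Which library scaling was used is not given in the sources used here. FPKM values were used as deposited. Rows sharing a symbol were summed, and the ratio of csMed1-/- to Med1fl/fl was computed without a pseudocount. A threshold of 2-fold was used. Of 206 genes in 27 lists, 190 were matched by symbol, 13 by an older RefSeq symbol and 3 by a joined symbol. Positions and transcripts came from GENCODE M21 (GRCm38, the assembly also called mm10). Identity was computed from global alignments in Biopython 1.88, and other steps used Python 3.11.15, numpy 2.4.6, pandas 2.3.3 and matplotlib 3.10.9. The computation was tested on simulated data. Named are all members, the genes of pathway lists of 6 or fewer, up to 3 of the highest and lowest ratios of longer pathway lists and up to 3 genes of a marker list, with further genes chosen after their values were seen. Members and lists were chosen with earlier results of these data known. Alternatives were pseudocounts, filters, scalings, a 4-fold threshold, the highest row of a symbol and wider sums.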

Additional observations from a re-analysis of the deposited data

How the results depend on the processing

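The 10 ratios kept their direction under the 4 scalings, and that of Tubb6, listed on 2 rows, also with the highest row of a symbol. The other alternatives could not change a direction. Pseudocounts of 0.1 and 1 were added to both libraries alike, a filter leaves a ratio as it is, and the other members have a single row. Tubb3 moved to a log2 ratio of 0.72 under a pseudocount of 1, inside 2-fold, and no other ratio crossed 2-fold. The count of members higher by more than 2-fold was 7. It was 6, without Tubb3, under a pseudocount of 1, with 1 FPKM asked of both libraries and with 10 FPKM asked of either. With a threshold of 4-fold it was 2, also after scaling to the 75th percentile or to the sum without the 100 highest genes, and 3, with Tubb2b, after centring on the median or scaling to the summed FPKM (scalings combined with this threshold after seeing the data). Scaling to the summed FPKM moved the median of all genes by 0.12 on the log2 scale, and under the 4 scalings Tuba1b, the closest to 2-fold, had log2 ratios from 1.004 to 1.17 and Tuba4a from -1.90 to -1.74. The median of the members ran from 1.14 to 1.44 over 10 alternatives. With the other tubulins included, a sum chosen after seeing the data, the log2 ratio of the alpha-tubulins went from 0.28 to 0.09. No paired analysis was possible because each genotype has 1 pooled library, and for the same reason no library could be left out. Precision could not be given for any value, since the files hold FPKM and no read counts.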
